A study of Mus musculus with 19 samples.

Results

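The 10 genes described here encode the MHC class I antigen presentation machinery and its immunoproteasome, and were chosen by name: H2-K1, H2-D1, B2m, Tap1, Tap2, Tapbp, Psmb8, Psmb9, Psmb10 and Nlrc5. Each symbol stood on a single row of the count table of 36172 genes, and all 10 were among the 15518 genes that passed the filter on low counts. The study sequenced RNA from whole ovaries of female C57BL/6 mice, an inbred strain, at 3, 6, 9 and 12 months of age, with 5, 5, 5 and 4 libraries. The labels name no treatment, allele, oestrous stage or batch, and the numbering of the libraries follows age. Whether the libraries come from different animals is not stated, so the p-values speak to the spread among libraries alone, part of which may be technical. Any effect of handling order and the effect of age cannot be told apart.

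MHC class I molecules display short peptides from proteins made inside the cell, and cytotoxic CD8 T cells and natural killer cells read them. The proteasome cuts proteins into peptides. Under interferon gamma its 3 catalytic subunits are replaced by the inducible subunits encoded by Psmb8, Psmb9 and Psmb10, which make the immunoproteasome. The TAP transporter, a dimer of the Tap1 and Tap2 products, carries peptides into the endoplasmic reticulum, where tapasin, from Tapbp, helps load them onto a heavy chain such as H2-K1 or H2-D1 paired with beta-2 microglobulin, from B2m. NLRC5 is a transcriptional activator of these genes. Nearly all nucleated cells carry class I, and lymphocytes, macrophages and endothelium carry much of it. In RNA from a whole ovary, a change in the number of such cells and a change in the RNA per cell cannot be told apart.

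Of the 10 genes, 7 lie on chromosome 17, in and around the mouse MHC (RefSeq, GRCm38.p6). Psmb9 (34182030 to 34187330), Tap1 (34187556 to 34197225), Psmb8 (34198195 to 34201454) and Tap2 (34204479 to 34216321) are the only 4 genes annotated over a stretch of 34.3 kb. Psmb9 and Tap1 point away from each other, with starts 226 bases apart. Tapbp (33919478 to 33929290) and H2-K1 (33996012 to 34000619) lie on one side of this block and H2-D1 (35263094 to 35267497) on the other. The remaining 3 genes lie apart, B2m on chromosome 2 (122147687 to 122153082), and Nlrc5 (94434335 to 94527272) and Psmb10 (105935728 to 105938392) on chromosome 8.

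RefSeq promoter windows of the same build were matched by symbol for 8 of the 10 genes, all but Tap2 and Nlrc5. The windows of the heavy chains and of B2m are printed because these 3 genes give the most abundant class I transcripts per length and share a pair of short motifs at the same spacing. Each runs 5′ to 3′ over the 250 bases before the transcription start, at chr17:34000348-34000597 (minus strand) for H2-K1, chr17:35262844-35263093 (plus strand) for H2-D1 and chr2:122147437-122147686 (plus strand) for B2m. The promoter table lists 2 starts for H2-K1, and the one used, at 34000347, lies 272 bases inside the annotated gene, so that this window falls within the gene, while those of H2-D1 and B2m end just before the annotated gene. Capitals mark, from left to right, an NF-kB site of 11 bases (H2-K1 and H2-D1), the interferon regulatory factor (IRF) core AANNGAAA, read as TTTCNNTT on the other strand, and a pair made of the CRE core TGACG and the CCAAT box, read as ATTGG.
H2-K1: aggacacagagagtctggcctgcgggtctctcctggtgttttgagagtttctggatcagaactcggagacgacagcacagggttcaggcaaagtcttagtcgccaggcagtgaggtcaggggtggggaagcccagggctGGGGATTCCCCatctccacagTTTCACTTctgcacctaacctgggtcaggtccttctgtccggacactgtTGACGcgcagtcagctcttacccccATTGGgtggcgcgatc
H2-D1: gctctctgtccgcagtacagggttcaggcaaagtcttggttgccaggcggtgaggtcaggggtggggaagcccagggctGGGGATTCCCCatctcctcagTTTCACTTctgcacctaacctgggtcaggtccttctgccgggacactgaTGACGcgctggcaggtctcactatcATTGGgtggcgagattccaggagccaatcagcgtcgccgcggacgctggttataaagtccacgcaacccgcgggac
B2m: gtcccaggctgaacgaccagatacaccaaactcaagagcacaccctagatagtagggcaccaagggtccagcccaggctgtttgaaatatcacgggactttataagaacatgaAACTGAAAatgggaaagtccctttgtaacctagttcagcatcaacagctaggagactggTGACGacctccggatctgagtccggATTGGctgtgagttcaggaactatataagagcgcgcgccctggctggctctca

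The motifs were searched on both strands of 27025 promoter windows of 250 bases, and none of the printed matches overlaps another. The 11 letters of the NF-kB site stood in H2-K1, 111 to 101 bases before the start used, and in H2-D1, 171 to 161 bases before its start. Both are among the 6 of all promoters that held it (0.0222%). An IRF core was present in H2-K1, H2-D1 and B2m, and in 21.6% of all promoters. In all of these 3 genes TGACG was followed by ATTGG with 25 bases between their first letters. That pair, on either strand and 15 to 30 bases apart, stood in 155 promoters (0.574%), and with exactly 25 bases in 25 (0.0925%). The 3 genes are among the promoters counted, and the spacing of 25 is the one seen in them. These shares are therefore a description and not a test. The windows of H2-K1 and H2-D1 are 87.4% identical over the 190 bases that align, so their shared matches are not separate observations.

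Of the other windows, Psmb8 held TTCCCAGAA, a match to the gamma-activated site (GAS) TTCNNNGAA found in 7.18% of promoters, 97 to 89 bases before its start. The windows of Psmb9 and Tap1 overlap by 225 bases, so the single CRE core and the single CCAAT box found in each are the same letters. The Tapbp window held 2 CCAAT boxes and that of Psmb10 none of the motifs. A CRE core alone was present in 17.9% of promoters and a CCAAT box in 34.5%.

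**Figure D1:**
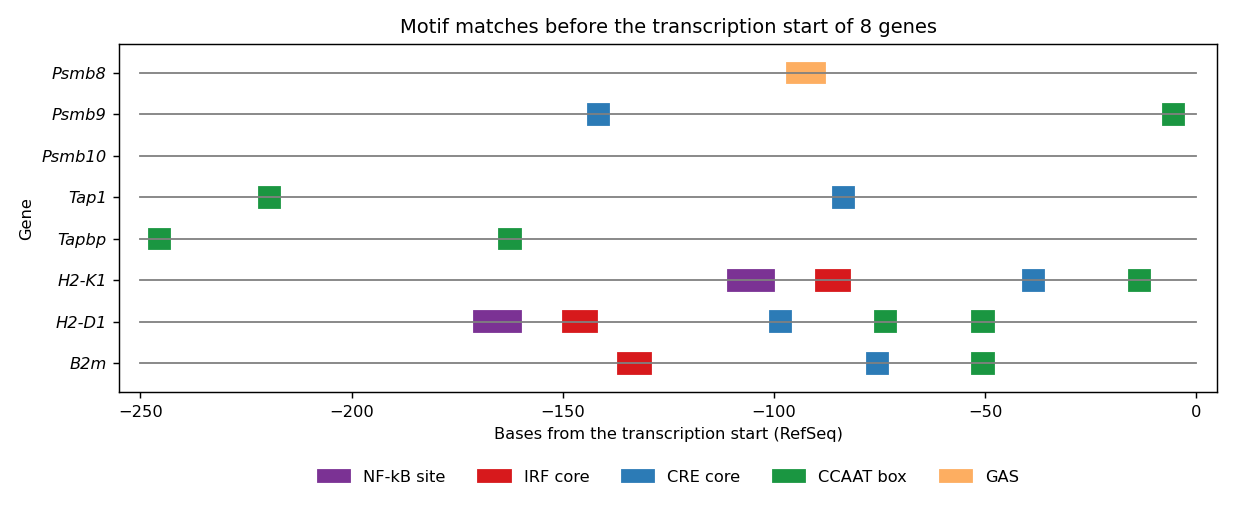
Motif matches in the 250 bases before the transcription start of 8 genes. The horizontal axis is distance from the start in bases, and each coloured block is a match to the NF-kB site, the IRF core, the CRE core, the CCAAT box or GAS on either strand. The CRE core and the CCAAT box to its right stand 25 bases apart in H2-K1, H2-D1 and B2m.

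Library totals ran from 10851519 to 14302207 estimated counts. Within an age, every pair of libraries differed beyond counting error (chi-square per degree of freedom 5.02 to 38.0). Marker lists of granulosa cells, theca and interstitial cells and stroma had every gene above 0 in every library, and of 10 oocyte genes only Figla was at 0 in any. In 3 libraries transcripts of lymph node stood out: Cr2, of follicular dendritic cells and B cells, was at 6.15, 10.7 and 12.6 CPM (counts scaled to library size) in 9 month replicates 1 and 2 and 12 month replicate 2, and at most 0.837 CPM elsewhere. Glycam1, a gene of the vessels of lymph nodes, stood at 6.71, 26.5 and 34.0 CPM there and at most 1.90 CPM elsewhere. Results that rest on these 3 libraries are therefore also given without them, a setting chosen after seeing the data.

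Between 3 and 12 months 5 of the 10 transcripts of class I presentation rose by the quasi-likelihood test of edgeR, namely Psmb8, Psmb10, Tap1, Tapbp and H2-D1, by 1.27- to 1.67-fold, and none fell. H2-K1, B2m, Psmb9, Tap2 and Nlrc5 did not pass in that comparison. Over all genes tested 10.9% rose in that comparison. At 9 months 7 of the 10 were above 3 months, against 11.3% of all genes, and along a linear trend with age 8 of the 10 rose, against 14.7%. The median log2 change of the 10 was 0.53 at 12 months, 0.51 at 9 months and 0.62 along the trend over 9 months, where the medians of all genes tested were 0.02, 0.01 and 0.03. These comparisons share the 3 month libraries.

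Without the 3 libraries with lymph node transcripts the counts were 4 of 10 at 12 months (Psmb8, Psmb10, Tapbp and H2-D1; all genes 12.1%), 1 of 10 at 9 months (Tapbp; all genes 8.19%) and the same 4 along the trend (all genes 13.2%). The median changes were then 0.30, 0.32 and 0.37, against 0.02, 0.02 and 0.03 over all genes. With offsets for gene length and GC content, also chosen after seeing the data, edgeR called 0 of 10 at 12 months (6 at an unadjusted p under 0.05, median change 0.40), 6 at 9 months and 6 along the trend. With single libraries left out the count at 12 months ran from 2, without 12 month replicate 2, to 7, and was 3 without 3 month replicate 2 or 5. The count at 9 months was 1 without 9 month replicate 2 and 3 without 9 month replicate 1 or 3 month replicate 2 or 5, and that along the trend was 5 without 12 month replicate 2.

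**Figure D2:**
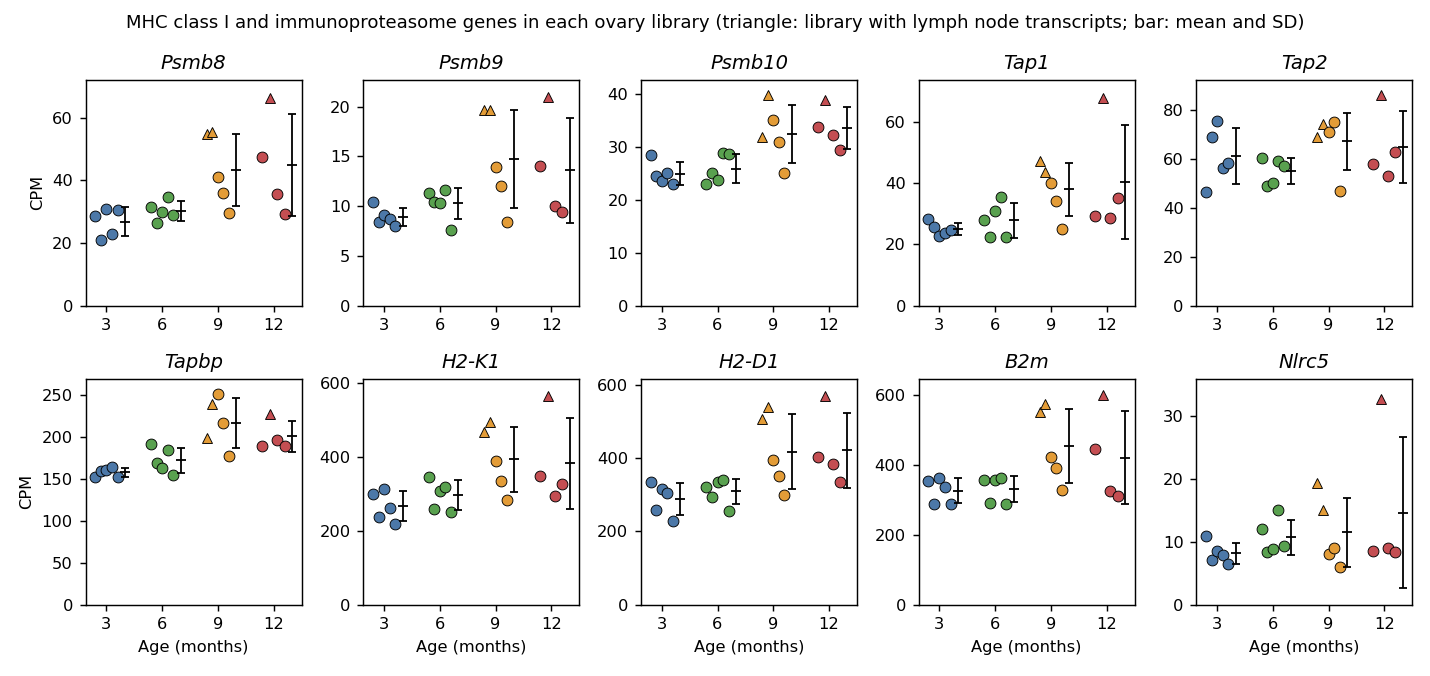
CPM of the 10 genes (vertical axes, from 0) in each library by age in months (horizontal axes). Points are libraries, triangles the 3 libraries with lymph node transcripts, and bars the mean and SD of each age. For 8 of the 10 genes the highest value lies in 12 month replicate 2, and the other 12 month libraries sit nearer to the 3 month ones.

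The levels of the 10 genes differed widely at 3 months. Per kilobase of exon, B2m stood highest at 379 ± 40.6 CPM per kb (SD, n = 5), above H2-K1 at 161 ± 24.1 and H2-D1 at 137 ± 20.5, which overlapped each other. Tapbp followed at 54.5 ± 1.81 CPM per kb. Psmb10 (19.1 ± 1.63), Tap2 (17.8 ± 3.32) and Psmb8 (16.4 ± 2.81) overlapped and came next. Tap1 stood at 8.48 ± 0.71, Psmb9 at 6.61 ± 0.684 and the regulator Nlrc5 lowest at 1.01 ± 0.208 CPM per kb. The standard catalytic subunits that the inducible ones replace, Psmb6 (160 ± 11.3), Psmb7 (132 ± 13) and Psmb5 (103 ± 7.78), were all above the 3 inducible ones.

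Among the genes of peptide generation, Psmb8 encodes the inducible subunit beta5i, which cuts after hydrophobic residues. Psmb8 was at 28.7, 20.9, 30.9, 22.8 and 30.5 CPM in the 5 libraries at 3 months and at 31.3, 26.3, 29.8, 34.8 and 28.9 CPM at 6 months. It was at 54.7, 55.4, 41.1, 35.9 and 29.5 CPM at 9 months and at 47.5, 66.4, 35.8 and 29.3 CPM at 12 months. The 3 libraries with lymph node transcripts hold its 3 highest values, and 1 library at each of the late ages lay within the 3 month range. Psmb8 rose by 0.74 ± 0.21 (log2, SE) between 3 and 12 months (edgeR adjusted p = 0.0194) and by 0.70 ± 0.20 between 3 and 9 months (adjusted p = 0.0182). With the 3 libraries left out the change at 12 months was 0.49 ± 0.16 (adjusted p = 0.0312) and at 9 months 0.43 ± 0.16 (adjusted p = 0.0699). Of the single libraries, 12 month replicate 2 ended the call at 12 months when left out (0.49, adjusted p = 0.0798), and 9 month replicate 2 that at 9 months (0.60, adjusted p = 0.0512).

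Psmb9 encodes beta1i, the second inducible subunit. Psmb9 was at 8.0 to 10.4 CPM at 3 months (mean 8.94 ± 0.925, SD, n = 5) and at 7.6 to 11.6 CPM at 6 months. It was at 19.6, 19.7, 13.9, 12.0 and 8.4 CPM at 9 months and at 14, 21, 10 and 9.4 CPM at 12 months. The 3 libraries with lymph node transcripts again stood above all others, and both late ages overlapped the 3 month range. Psmb9 rose by 0.72 ± 0.23 between 3 and 9 months (adjusted p = 0.0269), a call that ended when 3 month replicate 2 or 5 or 9 month replicate 1 or 2 was left out (change 0.61 to 0.70). Its change at 12 months was 0.61 ± 0.24 (adjusted p = 0.0752), and it passed there without 9 month replicate 5 or 12 month replicate 4 (0.61 and 0.74). In the remaining 16 libraries the changes were 0.37 ± 0.18 at 9 months (adjusted p = 0.164) and 0.32 ± 0.18 at 12 months (adjusted p = 0.210).

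Psmb10 encodes beta2i, the third inducible subunit, and had a smaller and steadier difference. Psmb10 was at 28.5, 24.5, 23.6, 25.1 and 23.1 CPM at 3 months and at 23, 25.2, 23.8, 28.9 and 28.7 CPM at 6 months. It was at 31.9, 39.9, 35.1, 30.9 and 25.0 CPM at 9 months and at 33.8, 39, 32.3 and 29.5 CPM at 12 months. Every 12 month library lay above every 3 month one. Of the 10 genes 3 had no overlap between these ages, Psmb10, Tap1 and Tapbp, against 6.72% of all genes. Psmb10 rose by 0.43 ± 0.12 between 3 and 12 months (adjusted p = 0.0145), by 0.38 ± 0.11 between 3 and 9 months (adjusted p = 0.0176) and by 0.33 ± 0.11 between 6 and 9 months (adjusted p = 0.0487). Its call at 12 months held with each of the 19 libraries left out in turn (adjusted p 0.00751 to 0.0491) and without the 3 libraries (0.35 ± 0.11, adjusted p = 0.0304). There, its change at 9 months was 0.30 ± 0.11 (adjusted p = 0.0772), a call that 9 month replicate 2 alone also ended (0.31, adjusted p = 0.0504). Between 6 and 9 months the call on Psmb10 was also lost without the 3 libraries (0.24 ± 0.11, adjusted p = 0.165).

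Inducible subunits were also set against the standard subunit that each replaces, as a ratio of counts per kilobase within a library. The ratio of Psmb8 to Psmb5 was 0.159 ± 0.0200 at 3 months (SD, n = 5), 0.203 ± 0.0307 at 6 months, 0.262 ± 0.0996 at 9 months and 0.247 ± 0.121 at 12 months (n = 4). Psmb9 to Psmb6 went from 0.0412 ± 0.00199 at 3 months through 0.0529 ± 0.010 and 0.0740 ± 0.0267 to 0.0635 ± 0.0321 at 12 months, and Psmb10 to Psmb7 from 0.146 ± 0.0188 through 0.165 ± 0.0204 and 0.205 ± 0.0535 to 0.202 ± 0.0319. All 3 mean ratios were higher at each later age than at 3 months, and the ranges overlapped in each of the 9 comparisons. By an exact two-sided permutation test 6 of the 9 had an unadjusted p under 0.05 and 0 passed after adjustment over the 9. The largest difference was that of Psmb9 to Psmb6 at 9 months (log2 0.76 ± 0.26, exact p = 0.0397, adjusted p = 0.0714). The smallest p was that of Psmb10 to Psmb7 at 12 months (log2 0.46 ± 0.15, exact p = 0.0159, adjusted p = 0.0714), where the design allows 0.00794 at the least. Without the 3 libraries with lymph node transcripts the differences at 12 months were 0.23, 0.20 and 0.39 and those at 9 months 0.27, 0.43 and 0.33, in the order of the 3 pairs.

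**Figure D3:**
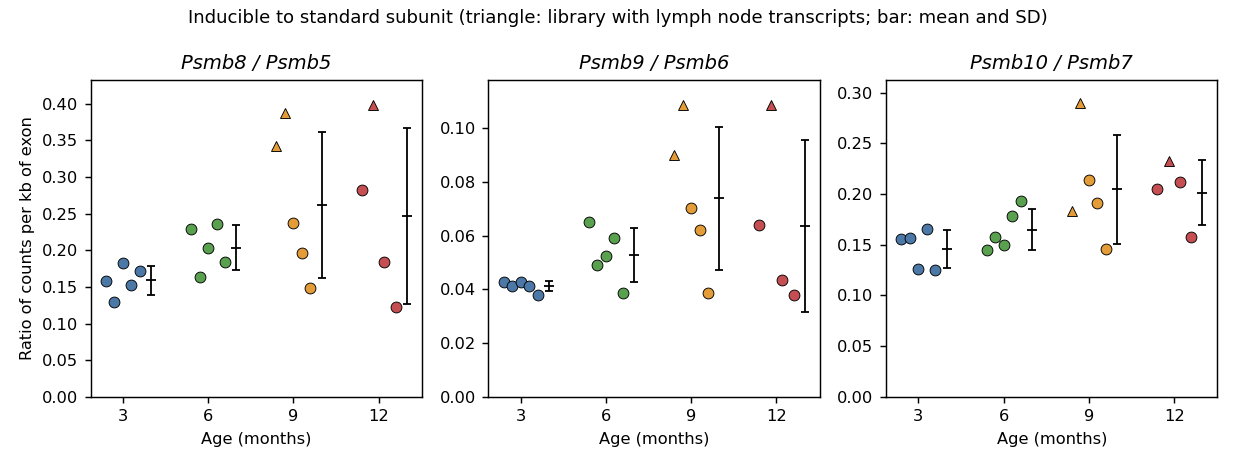
Ratio of each inducible proteasome subunit to its standard counterpart, in counts per kb of exon (vertical axes, from 0), by age in months. Points are libraries, triangles the 3 libraries with lymph node transcripts, and bars the mean and SD. The ratios of Psmb9 to Psmb6 at 3 months lie between 0.0379 and 0.0428, and each later age spreads wider.

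Genes whose products the inducible subunits join or replace were set beside all genes, of which 10.9% rose and 11.5% fell at 12 months. Of the standard catalytic subunits 0 of 3 changed at 12 months by edgeR (0 at an unadjusted p under 0.05, and 0 by DESeq2, limma-voom and limma-trend), and Psmb5, Psmb6 and Psmb7 had log2 changes of 0.20 ± 0.10, 0.04 ± 0.08 and -0.04 ± 0.08. After leaving out the 3 libraries Psmb5 passed along the trend (0.30 ± 0.11, adjusted p = 0.0495). Among 11 other subunits of the 20S core 0 passed at 12 months (1 at an unadjusted p under 0.05, and 0 by the other 3 tools), with a median of -0.04. Of 9 genes for activators and assembly factors, 1 rose at 12 months, a share near that of all genes. It was Psme2, a subunit of the PA28 cap that interferon gamma induces (0.17 ± 0.06, adjusted p = 0.0422). The call on Psme2 was lost without the 3 libraries and in 9 of the 19 fits without 1 library (0.14 to 0.18). Psme1, the partner of Psme2, had a change of 0.16 ± 0.08 (adjusted p = 0.160).

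Tap1 encodes one subunit of the peptide transporter. Tap1 was at 28.3, 25.6, 22.8, 23.9 and 24.6 CPM at 3 months and at 27.9, 22.4, 30.8, 35.6 and 22.6 CPM at 6 months. It was at 47.3, 43.8, 40.0, 34.2 and 25.1 CPM at 9 months and at 29.3, 68.1, 28.8 and 35.3 CPM at 12 months. All 12 month values lay above all 3 month ones, with 12 month replicate 2 at 1.93 times the next. Tap1 rose by 0.69 ± 0.23 between 3 and 12 months (adjusted p = 0.0374) and by 0.61 ± 0.22 between 3 and 9 months (adjusted p = 0.0485). Without the 3 libraries 4 of the 10 genes had no overlap at 12 months, Tap1 still among them, against 10.4% of all genes, and the change of Tap1 was 0.32 ± 0.16 (adjusted p = 0.149) and at 9 months 0.42 ± 0.16 (adjusted p = 0.0737). The call at 12 months was also lost without any of 3 month replicates 2 to 5 (change 0.66 to 0.70), and that at 9 months in 14 of the 19 fits without 1 library (adjusted p as high as 0.103).

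Tap2, the other subunit of the transporter, did not pass in any comparison. It was at 46.5, 69.1, 75.7, 56.1 and 58.4 CPM at 3 months and at 57.9, 86.0, 53.0 and 62.7 CPM at 12 months. The 3 and 12 month ranges overlapped widely, and the change was 0.09 ± 0.16 at 12 months (adjusted p = 0.731) and 0.14 ± 0.15 at 9 months (adjusted p = 0.540). With the 3 libraries left out it was -0.08 ± 0.16 at 12 months. Psmb9, Tap1, Psmb8 and Tap2 lie side by side on chromosome 17, and their changes at 12 months were 0.61, 0.69, 0.74 and 0.09.

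Tapbp encodes tapasin, which bridges the transporter and the empty class I molecule, and was the steadiest of the 10. At 3 months Tapbp was at 152.7, 159.5, 160.1, 164.6 and 152.3 CPM, and at 6 months at 190.9, 168.8, 162.3, 184.0 and 154.8 CPM. At 9 months the values were 198.9, 239.4, 251.0, 216.2 and 176.9 CPM, and at 12 months 189.3, 227.0, 196.4 and 189.0 CPM. The lowest late library stood above the highest 3 month one, so that Tapbp was the 1 gene of the 10 without overlap at 9 months, against 5.52% of all genes. Its highest value, in 9 month replicate 3, lay outside the libraries with lymph node transcripts. Tapbp rose by 0.34 ± 0.09 between 3 and 12 months (adjusted p = 0.0102), by 0.46 ± 0.08 between 3 and 9 months (adjusted p = 0.00086) and by 0.33 ± 0.08 between 6 and 9 months (adjusted p = 0.0114). In the remaining 16 libraries the changes at 12 and 9 months were 0.28 ± 0.09 (adjusted p = 0.0275) and 0.46 ± 0.09 (adjusted p = 0.00217), and no single library left out ended either call.

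Among 10 other partners of peptide loading and trimming, that of calreticulin included, the median change at 12 months was -0.03. None fell, against 11.5% of all genes, and 1 rose, a share near the 10.9% of all genes. It was Calr, a chaperone of the loading complex (0.26 ± 0.08, adjusted p = 0.0300), whose call was lost without 3 month replicate 2, 4 or 5, without 12 month replicate 1, 3 or 4 (change 0.21 to 0.26) and with the length and GC offsets. With the 3 libraries left out Calr rose by 0.33 ± 0.09 (adjusted p = 0.0117).

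**Figure D4:**
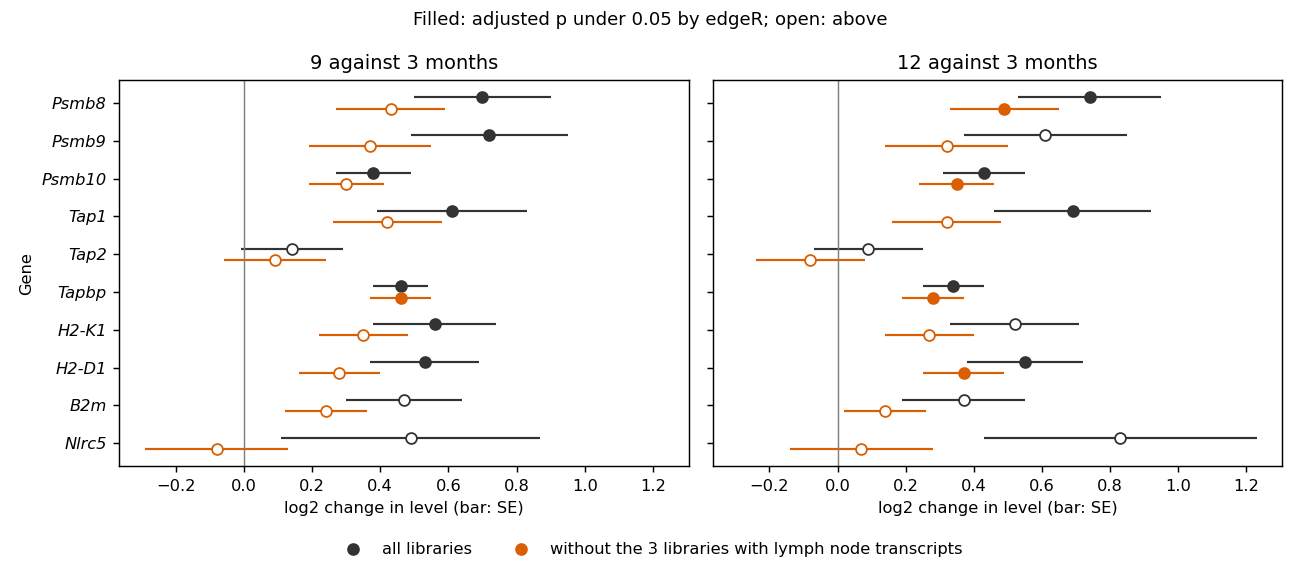
log2 change of each gene at 9 months (left) and 12 months (right) against 3 months (horizontal axes; bars are SE), with all libraries and without the 3 with lymph node transcripts. Filled points passed edgeR's adjusted p of 0.05. Tapbp is filled in all 4 positions, and the points without the 3 libraries lie nearer to 0 for the other genes.

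H2-K1 and H2-D1 encode the classical class I heavy chains of this strain. H2-K1 was at 298.6, 237.8, 313.9, 262.0 and 219.4 CPM at 3 months and at 343.7, 258.5, 306.5, 319.2 and 251.7 CPM at 6 months. It was at 465.5, 494.1, 388.6, 333.4 and 282.8 CPM at 9 months and at 347.4, 563.2, 292.4 and 324.7 CPM at 12 months. The 3 libraries with lymph node transcripts were the highest, and 1 library at each of the late ages lay within the 3 month range. H2-K1 rose between 3 and 9 months by 0.56 ± 0.18 (adjusted p = 0.0275). That call was lost when 3 month replicate 2 or 5 or 9 month replicate 1 or 2 was left out (change 0.48 to 0.52). At 12 months its change was 0.52 ± 0.19 (adjusted p = 0.0521), and it passed once any of 9 month replicates 2 and 5 and 12 month replicates 3 and 4 had been left out (change 0.52 to 0.63). After leaving out the 3 libraries the changes were 0.35 ± 0.13 (adjusted p = 0.0768) and 0.27 ± 0.13 (adjusted p = 0.137).

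H2-D1 was at 334.0, 259.6, 316.2, 304.2 and 229.6 CPM at 3 months and at 321.0, 294.3, 335.3, 339.9 and 256.9 CPM at 6 months. It was at 504.8, 537.6, 393.9, 349.5 and 297.8 CPM at 9 months and at 401.7, 568.9, 382.2 and 333.3 CPM at 12 months. The lowest 12 month library fell just within the 3 month range. H2-D1 rose by 0.55 ± 0.17 between 3 and 12 months (adjusted p = 0.0300) and by 0.53 ± 0.16 between 3 and 9 months (adjusted p = 0.0247). In the absence of the 3 libraries it rose by 0.37 ± 0.12 at 12 months (adjusted p = 0.0367), and its change at 9 months was 0.28 ± 0.12 (adjusted p = 0.120). The 12 month call ended when 3 month replicate 2, 3 month replicate 5 or 12 month replicate 2 was left out (change 0.37 to 0.51), and the 9 month call when 3 month replicate 2 or 5 or 9 month replicate 1 or 2 was (change 0.43 to 0.49). H2-K1, H2-D1 and the H2-Q and H2-T genes are close copies, and how shared reads were counted is not given in the sources used here, so the split between them is uncertain.

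B2m, the light chain that all class I heavy chains need, was at 353.6, 288.7, 360.7, 337.4 and 288.8 CPM at 3 months and at 357.1, 291.9, 355.8, 360.6 and 287.4 CPM at 6 months. It was at 550.3, 574.4, 421.7, 389.7 and 328.1 CPM at 9 months and at 443.6, 598.4, 325.9 and 310.7 CPM at 12 months. The 3 libraries with lymph node transcripts led again, and 2 of the other 12 month libraries lay within the 3 month range. B2m passed along the trend (0.49 ± 0.18 over 9 months, adjusted p = 0.0453) but not at 9 months (0.47 ± 0.17, adjusted p = 0.0502; it passed in 5 of 19 fits without 1 library) or 12 months (0.37 ± 0.18, adjusted p = 0.154). The call along the trend was lost in 14 of the 19 fits that left out 1 library (change 0.37 to 0.53). With the 3 libraries left out the change of B2m was 0.20 ± 0.12 along the trend (adjusted p = 0.210), 0.24 ± 0.12 at 9 months (adjusted p = 0.197) and 0.14 ± 0.12 at 12 months (adjusted p = 0.421).

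Of 16 further class I and class I-like heavy chains tested, 6 rose at 12 months, against 10.9% of all genes, and none fell, with a median of 0.44 against 0.02 over all genes. H2-T22, a ligand of some gamma delta T cells, rose by 0.46 ± 0.11 (adjusted p = 0.00874). H2-T24 rose by 0.96 ± 0.29 (adjusted p = 0.0255) and H2-M2 by 1.82 ± 0.58 (adjusted p = 0.0308), both at low levels of 8.48 and 2.73 CPM on average at 12 months. The call on H2-T24 ended without 3 month replicate 3 or 12 month replicate 2, and that on H2-M2 without either or 3 month replicate 2 or 5 (H2-T24 0.43 to 0.90, H2-M2 1.25 to 1.75). The remaining 3 were H2-Q4, H2-Q6 and H2-Q7. In the remaining 16 libraries H2-T22 (0.34 ± 0.10, adjusted p = 0.0240) and H2-M2 (1.25 ± 0.44, adjusted p = 0.0456) were the 2 of the 16 that rose, a share near the 12.1% of all genes, with a median of 0.24. At 9 months 4 rose, H2-T22, H2-T23, Cd1d1 and Fcgrt, against 11.3% of all genes. The same 4 rose without the 3 libraries, against 8.19%, with a median of 0.37. Along the trend 8 rose, against 14.7%, and 1 without the 3 libraries, against 13.2%.

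Nlrc5, the activator of class I transcription, did not pass in any comparison. It was at 10.9, 7.2, 8.5, 7.9 and 6.5 CPM at 3 months and at 12.1, 8.4, 8.8, 15 and 9.3 CPM at 6 months. It was at 19.3, 15.1, 8.1, 9.0 and 6.0 CPM at 9 months and at 8.5, 32.7, 9.0 and 8.4 CPM at 12 months. A single library, 12 month replicate 2, stood at 3.64 times the next of its age, and the other 12 month libraries lay within the 3 month range. The change was 0.83 ± 0.40 at 12 months (adjusted p = 0.137) and 0.49 ± 0.38 at 9 months (adjusted p = 0.369). After leaving out the 3 libraries it was 0.07 ± 0.21 (adjusted p = 0.83) and -0.08 ± 0.21 (adjusted p = 0.838).

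Other regulators of class I transcription went in both directions. Of 17 tested, 2 rose and 2 fell at 12 months, with a median of 0.11, where 10.9% of all genes rose and 11.5% fell. The interferon regulatory factors Irf8, a factor of myeloid and B cells, and Irf9, a factor of the type I interferon response, rose by 0.84 ± 0.21 (adjusted p = 0.00986) and 0.34 ± 0.12 (adjusted p = 0.0432), the latter lost in 11 of the 19 fits without 1 library (0.23 to 0.36). Nfya, a subunit of the factor that binds the CCAAT box, fell by 0.36 ± 0.08 (adjusted p = 0.00541), and Creb1, which binds the CRE, fell by 0.36 ± 0.07 (adjusted p = 0.00234). Ciita, the class II counterpart of Nlrc5, had a change of 1.11 ± 0.43 (adjusted p = 0.0738). Irf1, a factor that interferon gamma induces, had a change of 0.01 ± 0.13 (adjusted p = 0.981). Without the 3 libraries the calls on Irf8, Nfya and Creb1 held, and Irf9 had a change of 0.23 ± 0.09 (adjusted p = 0.0821).

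Genes around interferon gamma itself were set beside the shares of all genes. Ifng had at most 10 estimated counts in a library, was at 0 in 11 of the 19, and was not tested. Of 11 genes for interferon ligands, receptors and kinases 9 were tested, and the ligands Ifng and Ifnb1 were not among them. Of these 9, 0 rose at 12 months by edgeR, against 10.9% of all genes, and 2 had an unadjusted p under 0.05 in either direction. The number that fell was 1, a share near the 11.5% of all genes. It was Jak1, a receptor kinase (-0.24 ± 0.08, adjusted p = 0.0399), a call lost in 7 of 19 fits without 1 library. Jak1 also fell with the 3 libraries left out (-0.23 ± 0.08, adjusted p = 0.0404). At 9 months 3 of the 9 rose, against 11.3% of all genes, and Jak1 fell. The 3 were the receptor chains Ifngr1 and Ifnar2 and the kinase Tyk2, named here after their values were seen, and both receptor chains rose without the 3 libraries as well, against 8.19%. Of 14 genes that interferon gamma induces 3 rose at 12 months, against 10.9% of all genes, with a median of 0.60: the guanylate-binding proteins Gbp4 (1.40 ± 0.35, adjusted p = 0.0107) and Gbp6 (1.06 ± 0.27, adjusted p = 0.0096), and Cd274, which encodes PD-L1 (0.77 ± 0.25, adjusted p = 0.0334; lost in 6 of 19 fits without 1 library). With the 3 libraries left out Gbp4 and Gbp6 still rose, by 1.27 ± 0.40 (adjusted p = 0.0325) and 0.76 ± 0.21 (adjusted p = 0.0166), while the change of Cd274 was 0.52 ± 0.21 (adjusted p = 0.0783) and the median of the 14 was 0.06, so that 2 of 14 rose against 12.1% of all genes. Along the trend 6 of the 14 rose, against 14.7%, and 2 without the 3 libraries, against 13.2%.

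Of 10 tested genes for CD8, CD3 and natural killer receptors 4 rose at 12 months, against 10.9% of all genes, with a median of 1.57. They were Cd8b1, Cd3e, Cd3d and Cd3g, and CD3 is not limited to the T cells that read class I. In the fit without the 3 libraries 2 of 8 tested rose, Cd3e and Cd3g, against 12.1%, with a median of 0.40. Cd3e, a chain of the T cell receptor complex, was at 0.3 to 1.0 CPM at 3 months, and at 3.5, 12.9, 1.1 and 2.3 CPM at 12 months. Cd8a, a chain of the coreceptor that binds class I, ranged from 0.7 to 2.2 CPM at 3 months. At 12 months Cd8a stood at 20.9 CPM in replicate 2, against 1.3, 1.4 and 1.1 CPM in replicates 1, 3 and 4. The change of Cd8a did not pass (2.28 ± 0.82, adjusted p = 0.0543), and without the 3 libraries it was 0 ± 0.41 (adjusted p = 0.997). Cd3e rose by 2.75 ± 0.67 (adjusted p = 0.00846), and without the 3 libraries by 1.65 ± 0.43 (adjusted p = 0.0112), while without 12 month replicate 2 alone it did not pass (1.65).

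Markers of cell types that carry class I also differed between ages. At 12 months 9 of 12 T and NK and 8 of 9 B and plasma cell genes rose, against 10.9% of all genes. So did 5 of 10 macrophage genes and 5 of 10 endothelial ones. Without the 3 libraries these counts were 3 of 11, 6 of 9, 5 of 10 and 5 of 10, against 12.1%. The summed level of 12 T and NK cell genes was 14.6 to 23.7 CPM at 3 months and 24.8 to 199 CPM at 12 months. That of 9 B and plasma cell genes was 10.2 to 20.2 and 61.8 to 536 CPM. The sum of 10 macrophage genes was 284 to 387 and 354 to 573 CPM, ranges that overlap. At 9 and 12 months outside the 3 libraries, the T and NK sum was 24.8 to 40.1 CPM and the B and plasma sum 38.7 to 144 CPM, still above every 3 month library. Endothelial genes, 10 in number, summed to 456 to 499 CPM at 3 months, 626 to 718 CPM at 9 months and 549 to 647 CPM at 12 months. No gene of these 4 lists was at 0 in every library of an age, and Cd5, of T cells, was at 0 in 1 or more 9 month libraries. Liver genes, 7 in number, summed to 154.5 to 419.8 CPM at 3 months and to as much as 1055 CPM at 9 months, in replicate 3. Of 5 tested, Alb, Apoa2 and Ttr rose at 9 months, against 11.3% of all genes. The same 3 rose without the 3 libraries with lymph node transcripts, against 8.19%. Oviduct genes, 5 in number, summed to 1783 to 2890 CPM at 3 months, 2177 to 6370 CPM at 9 months and 2421 to 5262 CPM at 12 months. Of these 5, 2 rose at 12 months, against 10.9% of all genes, and 5 without the 3 libraries, against 12.1%. At 9 months 1 rose, against 11.3%, and 1 without the 3 libraries, against 8.19%. Other cell types of the ovary moved at the same ages. Of 10 oocyte genes 9 fell at 12 months, against 11.5% of all genes, with a median of -1.78, and their sum was 237.5 to 371.8 CPM at 3 months and 45.3 to 113.1 CPM at 12 months. Of 6 theca and interstitial genes 3 fell at 12 months, against 11.5% of all genes, and 1 rose, against 10.9%. Of 7 stroma genes 2 rose at 12 months, against 10.9%, and 4 at 9 months, against 11.3%. Among the stroma genes 1, Tcf21, fell at both ages.

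With the mean of the lymphocyte markers as a covariate, edgeR called 0 of the 10 genes at 12 months (2 at an unadjusted p under 0.05, median change 0.07) and 1, Tapbp, at 9 months. Of all 15518 genes that fit called 2269 and 2029. With the macrophage markers 0 of the 10 were called at 12 and 9 months (0 and 1 at an unadjusted p under 0.05), and 1473 and 1112 of all genes. With the endothelial markers 0 of the 10 were called at either age (0 and 0), and 55 and 0 of all genes. With no covariate 3475 and 3872 of all genes were called, and 5 and 7 of the 10. Calls were thus lost outside the 10 as well. With the lymphocyte and macrophage markers the 10 lost a larger share of their calls than all genes did. The 3 month libraries overlap neither 9 nor 12 month ones in the lymphocyte covariate (mean log2 CPM at most 0.52 at 3 months, at least 0.61 later) or the endothelial one (at most 5.51, at least 5.68). Whether these cell types account for the changes was not tested.

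**Figure D5:**
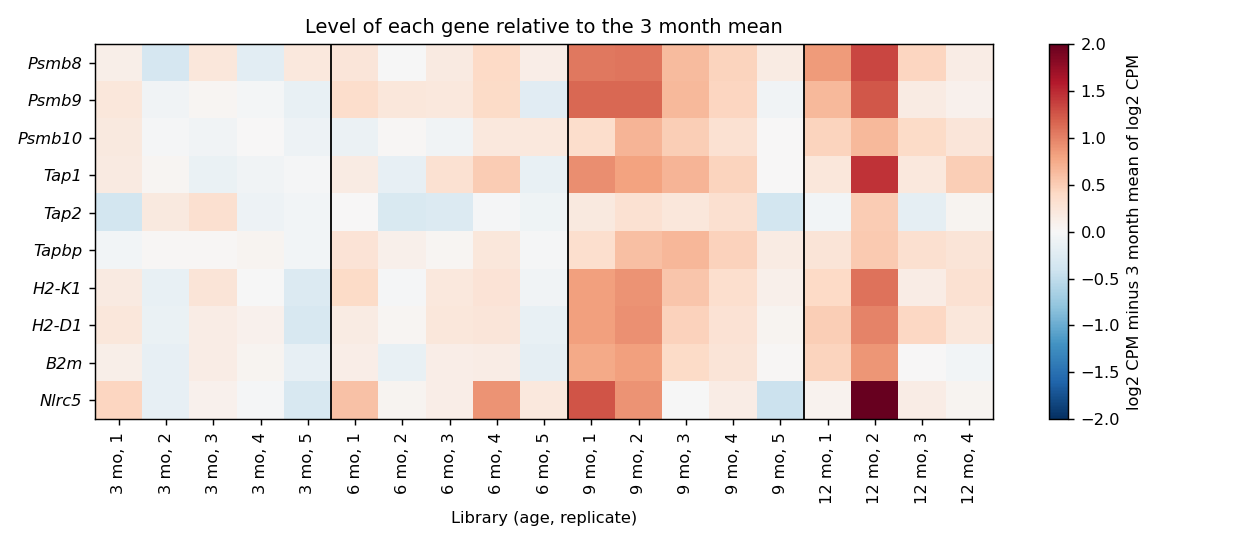
log2 CPM of the 10 genes (rows) in the 19 libraries (columns, by age and replicate) minus the 3 month mean of the same gene. Red is above and blue below the 3 month mean, on a scale from -2 to 2. The 9 month replicates 1 and 2 and 12 month replicate 2 form the reddest columns, and the rows of Tap2, Tapbp and Psmb10 depart from the others.

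For all 10 the highest 12 month library was replicate 2, and for 7 of the 10 the 9 month replicates 1 and 2 were the highest of their age, all but Tap2, Tapbp and Psmb10. The spread over the 19 libraries differed between genes, with a ratio of the highest to the lowest of 5.44 for Nlrc5, 3.18 for Psmb8 and 3.05 for Tap1, down to 1.73 for Psmb10 and 1.65 for Tapbp. The 5 genes outside the 10 whose log2 CPM lay closest to the mean profile of the 10 over the 19 libraries were Arhgdib (Pearson r = 0.960), AI662270 (0.950), Hmha1 (0.950), Csf2rb (0.948) and Coro1a (0.945). These correlations describe libraries that share depth, age and cell content.

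Between 3 and 6 months 0 of the 10 genes passed by edgeR, 0 had an unadjusted p under 0.05, and 0 passed by DESeq2, limma-voom or limma-trend, where 3 of all genes tested (0.0193%) changed. Their log2 changes ran from -0.15 to 0.39. Between 9 and 12 months 0 of the 10 passed by the same 4 tools, and 0 had an unadjusted p under 0.05, with changes from -0.12 to 0.35, and edgeR called 0 (0%) of all genes, against 2152 at an unadjusted p under 0.05 and 256 by DESeq2. Between 6 and 9 months 2 of the 10 rose, Tapbp and Psmb10, against 7.44% of all genes, and the changes of the 10 ran from 0.10 to 0.52. That count was 1 without the 3 libraries (Tapbp; all genes 6.54%) and in 11 of the 19 fits without 1 library, 8 without 9 month replicate 5 and 7 without 12 month replicate 2.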

How the data were processed

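RNA from whole mouse ovaries was sequenced in 19 libraries. A strand-keeping kit was used, per the labels' protocols, while the aligner, the counting method and its strand setting are not stated. Per the submitters' processing notes, mm10 was the genome build. The authors deposited estimated counts, which need not be whole, and log2 values normalized by a method not given here, per the file headers. Each table has 1 further column that matches no sample and was not used. Estimated counts were rounded and tested with edgeR 4.0.16 (R 4.3.3; quasi-likelihood, robust, TMM, 1 mean per age over all libraries, filterByExpr with a minimum count of 10) and Benjamini-Hochberg adjustment over 15518 genes, at 0.05. CPM use TMM-scaled library sizes, with a prior count of 2 on the log2 scale. Exon length and GC content, from GENCODE mouse transcripts matched by Entrez gene, were known for 95.7% of the genes tested. Gene positions are from RefSeq GRCm38.p6.

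Libraries were grouped by their age label. Alternatives were DESeq2 1.42.0, limma 3.58.1 (voom with sample weights, and trend on the deposited log2 values), other size factors and filters, only the ages compared, marker covariates, and each library left out in turn. On simulated counts for 15410 genes, comparing 3 with 12 months, edgeR found 35 of 67 simulated 1.5-fold changes, 56 of 66 that were 2-fold and 60 of 65 that were 4-fold, with 8 false calls, so changes of the size seen here can be missed. The 10 genes, the pathway lists (116 further genes) and the marker lists were chosen with earlier results of these data known. The text names the 10 genes, a few further genes picked from each pathway list (up to 4 with the smallest p at 12 months among those past the threshold, otherwise the 2 most abundant), some fixed by name, and the 5 of closest profile. Not all of these are printed, and 1 regulator fixed by name is not reported here.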

Additional observations from a re-analysis of the deposited data

Results flagged for a closer look

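In 3 of 52 checks of an age group, 1 library lay far from the others, where chance gives about 1 in 20. Tap1 was at 68.1 CPM in 12 month replicate 2, and the next 12 month library was at 35.3 CPM. Nlrc5 was at 32.7 CPM in the same library, and the other 12 month libraries were at 8.39 to 8.98 CPM. That library is 1 of the 3 with lymph node transcripts. Tap2 was at 46.8 CPM in 9 month replicate 5, and the other 9 month libraries were at 69.0 to 75.1 CPM.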

How the results depend on the processing

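Many calls were lost when single libraries were left out or marker covariates were added. Of the values computed under other settings for the 10 genes at 12 months, at 9 months and along the trend, 764 kept their direction and their side of the threshold, 156 lost a call, 18 gained one and 42 turned direction. No paired analysis was possible because the labels give no replicate number shared between ages. The scaling and filter alternatives moved the median of all genes by less than 0.1. Nlrc5 and Psmb9 have the lowest CPM of the 10, and how far depth limits each gene was not compared. The cause of each change below was not tested.

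With the lymphocyte covariate edgeR called 2269 genes at 12 months, 2029 at 9 months, 2021 along the trend, 1740 between 6 and 9 months and 3 between 9 and 12 months, and 0, 1, 0 and 0 of the 10 genes in the first 4. With the macrophage covariate these counts were 1473, 1112, 1126, 1436 and 16, with 0 of the 10 genes in each. With the endothelium covariate they were 55, 0, 398 and 0, with 0 of the 10. At an adjusted p under 0.01 they were 1354, 1872, 2349 and 994, with 0, 1, 4 and 0 of the 10, and 0 genes between 3 and 6 months. With a minimum change of 1.5-fold they were 1489, 1667, 1997 and 1055, with 2, 3, 5 and 0 of the 10. With the length and GC offsets 0 of the 10 passed at 12 months and 1 between 6 and 9 months. Without the 3 libraries with lymph node transcripts the 10 genes gave 1 call at 9 months, 4 along the trend and 1 between 6 and 9 months. Between 6 and 9 months DESeq2 called 5 of the 10, limma-trend 1 and the fit without a filter 1. Between 3 and 6 months DESeq2 called 43 genes, limma-voom 174, limma-trend 0, the fit on these ages alone 34 and the fit without the 3 libraries 8. Between 9 and 12 months DESeq2 called 256.

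Each library left out in turn gave 2124 to 3806 genes and 2 to 7 of the 10 at 12 months, 2784 to 4484 and 1 to 8 at 9 months, 3798 to 4853 and 5 to 8 along the trend, and 1721 to 3212 and 1 to 8 between 6 and 9 months. Between 3 and 6 months it gave 0 to 5 genes, and between 9 and 12 months 0 to 278, the last without 9 month replicate 5. Without that library the 3 subunit ratios at 9 months passed (exact permutation adjusted p = 0.0238), over ranges of the log2 difference of 0.485 to 0.83 for Psmb8 to Psmb5, 0.602 to 0.973 for Psmb9 to Psmb6 and 0.33 to 0.578 for Psmb10 to Psmb7.

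Direction turned, at 12 months, 9 months and along the trend in this order where 3 values are given, for the following. With the lymphocyte covariate it turned for Tap2 (-0.165, -0.11 and -0.147), Nlrc5 (-0.279, -0.532 and -0.357), B2m (-0.085 at 12 months and -0.068 along the trend) and Psmb9 (-0.002 in both). With the macrophage covariate it turned for Tap2 (-0.087, -0.066 and -0.059), Nlrc5 (-0.176, -0.615 and -0.166), B2m (-0.165, -0.113 and -0.149) and Psmb9 (-0.105, -0.082 and -0.105). With the endothelium covariate it turned at 12 and 9 months for H2-K1 (-0.137 and -0.409), B2m (-0.062 and -0.167), Tap1 (-0.311 and -0.836), Psmb9 (-0.172 and -0.453) and Nlrc5 (-0.605 and -1.533), for Tap2 (-0.295, -0.429 and -0.152) and for H2-D1 at 9 months (-0.272). Without the 3 libraries it turned for Tap2 at 12 months (-0.078) and along the trend (-0.003) and for Nlrc5 at 9 months (-0.079) and along the trend (-0.05). Tap2 also turned with the offsets (-0.05) and ran from -0.078, without 12 month replicate 2, to 0.176 with single libraries left out.

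Outside the 10, at 12 months, the lymphocyte, macrophage and endothelium covariates turned Ciita (-0.145, -0.041 and -0.348) and Irf1 (-0.255, -0.381 and -0.205). Irf1 also turned with limma-voom (-0.016), limma-trend (-0.024), only the ages compared (-0.002), the offsets (-0.085) and without the 3 libraries (-0.137), and ran from -0.138 to 0.121 with single libraries left out. Psme1 turned with the endothelium covariate (-0.057), Psmb7 with the macrophage covariate (0.029), and Psmb6 (-0.173) and Psmb5 (-0.019) with the offsets. With single libraries left out Psmb7 ran from -0.103 to 0.008 and Psmb6 from -0.024 to 0.102.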
